A study of Rattus norvegicus with 4 samples.

Results

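This account describes 46 rat genes that license DNA replication origins, build the replication fork and supply it. They were chosen by name and not by a cut on measured values, though earlier results of these data were known. Probes were assigned to them by matching the array's accession for each gene probe to rat RefSeq symbols. Of the 46 genes, 44 had a named probe with a value on every array, among 16526 named genes in all, and they were read by 55 probes. Mcm5, a subunit of the replicative helicase, and Rpa1, the large subunit of the single-strand binding protein, had no such probe. Their expression was not analysed here, but both were included in the promoter search. A single probe read 34 of the genes, 9 genes had 2 probes, and Pole had 3.

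RNA came from NR8383 cells, a macrophage line that was started from the lung lavage of a normal rat and grows partly attached and partly afloat. All 4 arrays analysed carry RNA of cells given zinc iron oxide (ZnFe2O4, NRCWE021) at 17 µg/mL for 4 h, after 20 passages, as 4 biological replicates. The design also names cells kept without the particle, whose arrays were not analysed here. The values below are therefore levels and replicate spread in exposed cells of 1 line, and none of them is a response to the particle.

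Before a cell enters S phase, the origin recognition complex binds DNA and, with Cdc6 and Cdt1, loads the MCM helicase rings; this step is called licensing. At the start of S phase Cdc45 and the GINS complex join the MCM ring to form the active CMG helicase, and primase, the DNA polymerases, the PCNA clamp and its loader then copy both strands. Many of these genes are known targets of E2F transcription factors, which are released from the retinoblastoma protein at the G1/S transition. Primary alveolar macrophages seldom divide, whereas NR8383 is kept as a growing line.

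Because E2F control is the best-known feature these genes share, the bases before their starts were searched in the RefSeq promoter table (build GRCr8), which held 38 of the 46 genes. The letters searched were TTTCCCGC, TTTGGCGC, TTTGCCGC and TTTCGCGC on both strands, in the 250 bases before each start. At least 1 of these E2F-type forms stood there in 10 of 38 members (26.3%) and in 580 of 33469 promoters of the table (1.73%). The 10 were Mcm2, Mcm5, Mcm6, Mcm7, Orc3, Orc5, Gins1, Gins3, Pola1 and Tyms. The 6 stretches below, written 5′ to 3′ on the gene's strand, were chosen to show a palindrome-like pair of overlapping matches (Mcm2, Mcm6 and Gins1) and lone matches in genes of other roles; capitals mark the matched letters.

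Mcm2, GRCr8 chr4:122918095-122918134, minus strand: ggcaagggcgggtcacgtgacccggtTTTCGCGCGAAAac
Mcm6, GRCr8 chr13:42404454-42404517, minus strand: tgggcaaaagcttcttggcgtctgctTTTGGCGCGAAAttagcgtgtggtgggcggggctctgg
Gins1, GRCr8 chr3:160184869-160184919, plus strand: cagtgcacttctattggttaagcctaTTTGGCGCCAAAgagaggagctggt
Orc3, GRCr8 chr5:53977856-53977915, minus strand: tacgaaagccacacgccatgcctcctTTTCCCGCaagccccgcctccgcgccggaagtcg
Pola1, GRCr8 chrX:62342494-62342553, minus strand: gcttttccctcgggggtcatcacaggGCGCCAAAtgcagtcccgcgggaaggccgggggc
Tyms, GRCr8 chr9:120776087-120776146, minus strand: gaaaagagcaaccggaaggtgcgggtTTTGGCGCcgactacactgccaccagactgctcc

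In Mcm2, Mcm6 and Gins1 a forward and a reverse form share their central GCGC letters, so that the 2 matches cover 1 place. Mcm5, whose stretch is not shown, held such an overlapping pair as well, from 213 to 202 bases before its start. The match nearest to a start among the 6 stretches shown ended 3 bases before it, in Mcm2. The farthest began 172 bases before it, in Pola1. When the 50 bases after the start were included, 18 of 38 members (47.4%) and 2.14% of promoters held a form. The cell cycle letters TTTGAA stood in 3 of 38 members (7.89%) and 16.2% of promoters, and the CCAAT box letters in 20 of 38 (52.6%) and 34.0% of promoters. A match is a run of letters and not a measured binding site, and 8 members, Orc1, Orc4, Mcm4, Cdc6, Gins4, Rrm2, Ccne2 and E2f1, had no entry in the table.

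The arrays differed in their dim signal, which bears on every dim gene below. The share of spots well above background, by the scanner software's own flag, was 47.0%, 89.5%, 70.5% and 41.6% on replicates 1 to 4, and no gene spot was saturated. The dimmest spike-in probe, which reads RNA added during labelling and not cell RNA, gave 3.72, 526, 112 and 3.92 units of processed signal. Of 13 macrophage markers, 11 were detected on all 4 arrays, the exceptions being Adgre1 and Marco. None of 7 epithelial markers was detected on replicates 1 and 4, yet 6 and 5 of them were on replicates 2 and 3, and their summed signal was 38.9, 4387, 993 and 28.5 units. On replicates 1 and 4, 2 of 6 T and NK cell markers (Cd4, Nkg7), 0 of 2 B cell, 1 of 5 fibroblast (Dcn), 2 of 4 endothelial (Cdh5, Vwf) and 1 of 3 neutrophil markers (S100a8) were detected.

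Nearly all of the replication genes were detected. At least 1 probe was well above background on each of the 4 arrays for 39 of 44 members, beside 42.4% of all named genes. On replicates 1 and 4 alone, where the dim spike-in stayed below background, 42 of 44 were detected, beside 45.9% of genes. The arrays taken singly gave 44, 43, 41 and 42 detected members for replicates 1 to 4. By a second threshold, 3 SD above the dimmest spike-in of the same array on all 4 arrays, 19 of 44 members passed beside 18.2% of genes, and the arrays singly gave 44, 19, 28 and 44. This spike-in threshold was the stricter one on replicates 2 and 3 only; on replicate 4 it passed Orc1 and Orc5, which were not well above background there. Replicate 2 set the count of 19. Fewer transcripts per cell cannot be told apart from fewer cells that carry them in such bulk RNA.

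Levels below are log2 processed signal minus the array's 75th percentile over probes detected on all arrays, for the probe of highest mean level; a value of 0 is the brightness of that percentile. Brightness depends on the probe as well as on the RNA, so levels of different genes are not ranked. For 38 members whose chosen probe was detected on all 4 arrays, the median level was -0.62, beside -1.49 for 6904 genes chosen the same way; these are medians of probe brightness and do not show that the members' RNA was more abundant. Their median SD over the 4 arrays was 0.33, ranging from 0.12 to 2.02, against 0.43 for all those genes. Without replicate 2 the median SD of the members was 0.24. With the percentile taken over all probes it was 1.73, with spike-in scaling 0.63 and after quantile normalization 0.51.

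**Figure D1:**
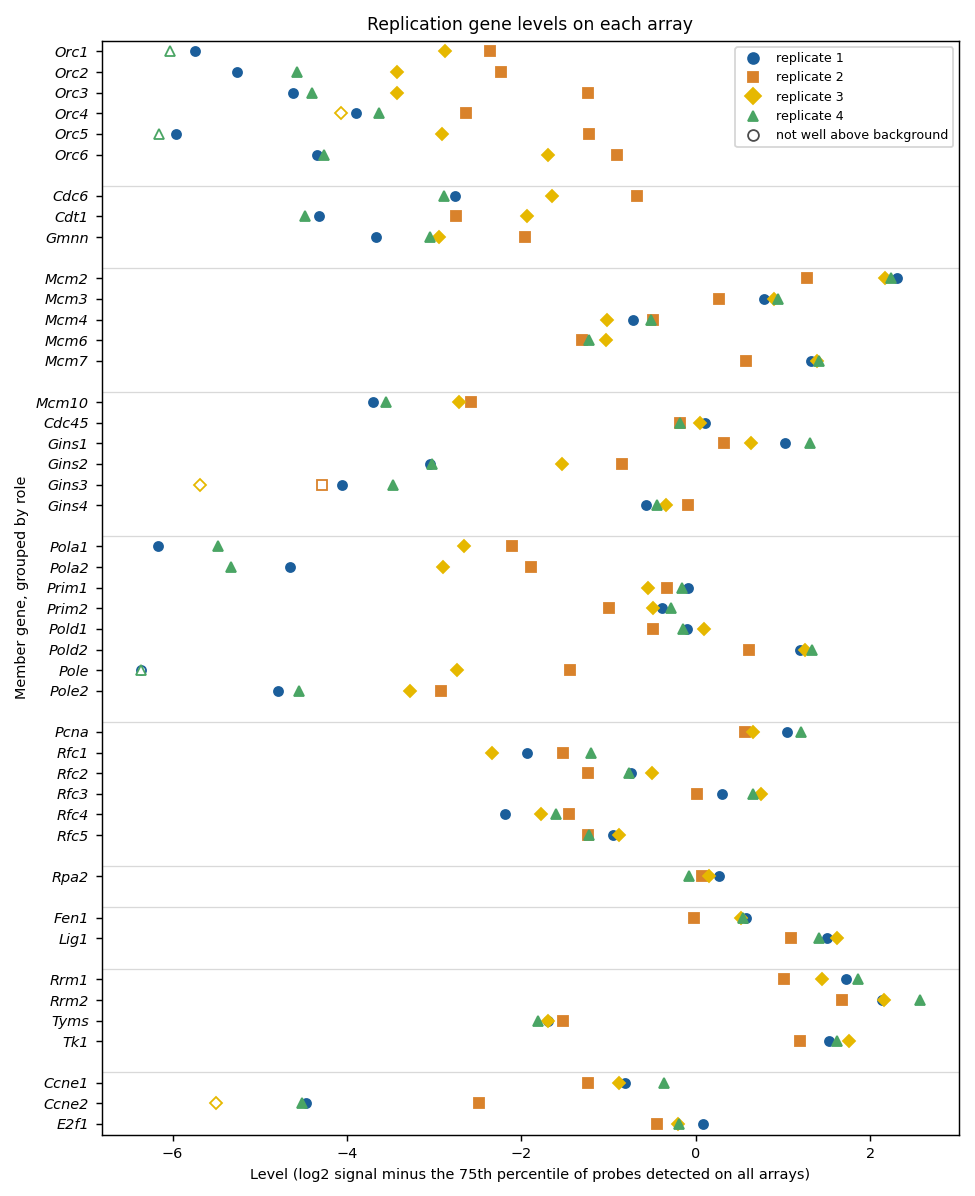
Each row is 1 of the 44 measured genes, grouped by role, and each symbol is its scaled level (log2 units) on 1 of the 4 arrays; open symbols were not well above background. In the origin recognition complex and licensing factor rows the replicate 2 squares stand to the right of replicates 1 and 4, while in the MCM helicase rows the arrays lie close together, with replicate 2 lowest for Mcm2, Mcm3 and Mcm7 under this scaling.

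The origin recognition complex, which marks origins and recruits the other licensing proteins, was read at low signal. All 6 subunits were detected on replicate 1, and 3 of 6 (Orc2, Orc3 and Orc6) on all 4 arrays. Orc6 gave 82.3, 898, 250 and 43.7 units on replicates 1 to 4, and Orc3, which had 2 probes, gave 67.9, 711, 75.5 and 39.8 units by its brighter probe. Orc2 gave 43.6, 356, 75.7 and 35.2 units. In unscaled signal the highest array was replicate 2 and the lowest was replicate 4 for each of these 3, while on the scaled levels replicate 2 was highest and replicate 1 lowest. The SD of the level was 1.77 for Orc6, 1.55 for Orc3 and 1.33 for Orc2. Orc1, whose protein is the subunit that cycles with cell division, gave 31.3, 326, 110 and 12.85 units and was not well above background on replicate 4. Orc5 gave 27.0, 715, 108 and 11.8 units, with the same array below background. Orc4 gave 112, 270, 48.4 and 67.8 units and was not well above background on replicate 3. None of the 6 subunits passed the spike-in threshold on all arrays.

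The licensing factors were all detected on all 4 arrays, and their unscaled signal was highest on replicate 2. Cdc6, the ATPase that works with the origin recognition complex to load helicases, gave 246, 1046, 259 and 113 units. Cdt1, the loader's partner that is destroyed in S phase, gave 83.6, 249, 213 and 37.5 units. Gmnn, or geminin, the inhibitor of Cdt1 that blocks a second round of licensing, gave 132, 430, 105 and 102 units. In unscaled signal replicate 2 was highest for all 3, but on the scaled levels Cdt1 was highest on replicate 3, at -1.93 against -2.75 on replicate 2. On those levels replicates 1 and 4 differed by 0.12 for Cdc6, 0.16 for Cdt1 and -0.62 for Gmnn (replicate 1 minus replicate 4). None of the 3 passed the spike-in threshold on all arrays.

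The MCM subunits, which form the ring that unwinds DNA, were all detected on all 4 arrays among the 5 measured, and 4 of 5 passed the spike-in threshold. Mcm2 gave 8251, 4040, 3659 and 3949 units, a level of 2.00 ± 0.49 (SD, n = 4). Mcm3 gave 2872, 2007, 1510 and 1611 units (0.72 ± 0.31), and Mcm7 gave 4169, 2494, 2131 and 2227 units (1.17 ± 0.40). In unscaled signal replicate 1 was highest for these 3 and the other arrays were close to each other; after scaling replicate 2 was the low one, although with spike-in scaling replicate 3 was lowest for Mcm2 and Mcm7. Mcm4 gave 1015, 1187, 399 and 587 units by its brighter probe (-0.69 ± 0.24). Mcm6 gave 693, 679, 398 and 359 units, and its level of -1.21 ± 0.12 had 1 of the 3 lowest SDs of the 38 members. A second, dimmer Mcm3 probe gave 62.5, 298, 110 and 21.4 units, so probes of this 1 gene differed in which array was highest. The dimmer Mcm4 probe gave 911, 773, 358 and 598 units, highest on replicate 1, whereas its brighter probe was highest on replicate 2. The dimmer Mcm2 probe gave 2337, 1363, 1096 and 1069 units, highest on replicate 1 like its brighter probe.

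Among the proteins that turn a loaded ring into a working helicase, Cdc45, Gins1 and Gins4 were read at higher signal and the others were dim. Cdc45, the CMG cofactor, gave 1793, 1473, 837 and 738 units (-0.06 ± 0.15). Gins1 gave 3398, 2095, 1255 and 2082 units (0.82 ± 0.43), and Gins4 gave 1123, 1576, 640 and 618 units (-0.36 ± 0.21). The 3 differed in their highest array, which was replicate 1 for Cdc45 and Gins1 and replicate 2 for Gins4. Gins2 had 2 probes that disagreed on detection: the brighter gave 201, 928, 279 and 103 units and was detected throughout, whereas the other gave 5.13, 292, 37.2 and 6.30 units and was detected on replicate 2 alone. Gins3 was the member detected on replicates 1 and 4 but on neither of the others, with 100.3, 85.8, 15.8 and 75.8 units. Mcm10, which takes part in origin firing, gave 129, 281, 124 and 71.3 units (-3.14 ± 0.57).

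The polymerases divided between dim and brighter probes. Pola1 and Pola2, the catalytic and accessory subunits of the polymerase that starts each new strand, gave 23.3, 389, 129 and 18.8 units and 66.5, 452, 109 and 20.8 units. Their SDs of 2.02 and 1.58 stood with that of Orc6 as the 3 highest among the 38 members whose chosen probe was detected on all arrays; the chosen probes of Pole, Orc5 and Orc1, not detected on all arrays, had SDs of 2.52, 2.40 and 1.90. Both were highest on replicate 2 and lowest on replicate 4 in signal. The primase subunits, which belong to the same complex and make its RNA primers, gave 1566, 1334, 556 and 754 units (Prim1) and 1276, 838, 575 and 690 units (Prim2), with SDs of 0.20 and 0.32. Pold1 and Pold2, of the polymerase assigned to the lagging strand, gave 1557, 1192, 868 and 758 units and 3824, 2555, 1924 and 2112 units, with SDs of 0.24 and 0.33. All 4 of these genes were highest on replicate 1 in signal.

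Pole, the catalytic subunit of the polymerase assigned to the leading strand, was the other gene whose probes disagreed. Its probe of highest mean level gave 20.3, 618, 121 and 10.2 units. The probe of lowest mean level gave 7.17, 765, 110 and 3.24 units, and both were detected on replicates 2 and 3 only. Its remaining probe, between them in mean level, gave 79.8, 69.8, 45.4 and 25.6 units and was detected on replicates 1 and 4 only. Pole was thus counted as detected on all 4 arrays through different probes, and no single probe of it was detected on all of them. Across all named genes with several probes, 58.0% of 3640 had probes that disagreed, beside 2 of 10 members. Pole2, its accessory subunit, gave 60.2, 220, 83.8 and 35.9 units (-3.89 ± 0.92).

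**Figure D2:**
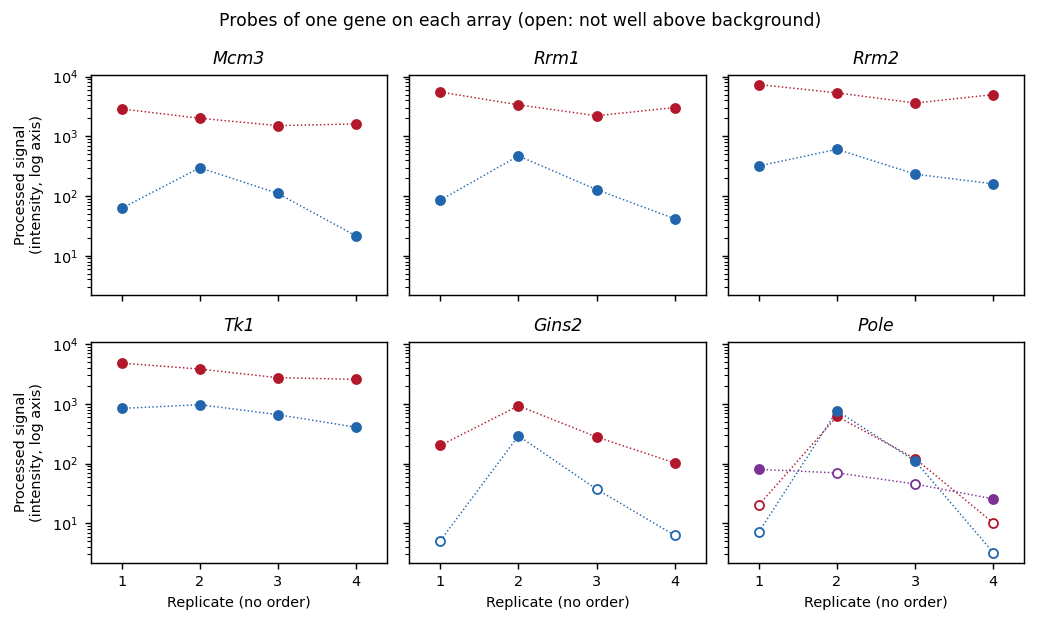
Processed signal (intensity units, log axis) of each probe of 6 genes on the 4 arrays, 1 colour per probe, with open points not well above background; dotted lines join points of 1 probe and imply no order. The brighter Mcm3, Rrm1 and Rrm2 probes are highest on replicate 1, and their dimmer probes are highest on replicate 2. The Gins2 and Pole probes differ in where they are detected. The dimmer probes of Mcm2, Mcm4 and Lig1, not drawn, were highest on replicate 1, so the pattern is not general.

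The sliding clamp Pcna and its loader were detected on all 4 arrays, 6 of 6 genes. Pcna, which tethers polymerases to DNA, gave 3441, 2464, 1277 and 1933 units (0.86 ± 0.31). Rfc1, the large loader subunit, gave 437, 584, 161 and 365 units, and its level was lower on replicate 1 than on replicate 4 by the widest margin of the 38 members, with a difference of -0.73. The other loader subunits gave 1000, 712, 573 and 494 units (Rfc2), 2066, 1691, 1363 and 1317 units (Rfc3), 368, 613, 237 and 276 units (Rfc4), and 869, 711, 442 and 359 units (Rfc5). Rfc2, Rfc3 and Rfc5 were highest on replicate 1 in signal, and Rfc1 and Rfc4 on replicate 2. The SDs of the 6 genes ran from 0.19 to 0.49.

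Single-strand binding and lagging strand maturation were represented by bright probes. Rpa2, the middle subunit of the single-strand binding protein, gave 2007, 1758, 903 and 796 units, a level of 0.10 ± 0.14 whose SD was among the 3 lowest of the 38 members. Fen1, the nuclease that cuts off the displaced flap, gave 2488, 1651, 1161 and 1221 units (0.40 ± 0.28). Lig1, the ligase that seals the remaining nick, gave 4725, 3578, 2484 and 2241 units (1.41 ± 0.22). A second, dimmer Lig1 probe gave 3529, 1727, 1436 and 1562 units and was also highest on replicate 1. All 3 were highest on replicate 1 in signal, detected on all arrays and above the spike-in threshold on all arrays.

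Nucleotide supply genes were all detected on all 4 arrays. Rrm2, the S phase subunit of ribonucleotide reductase, gave 7359, 5343, 3610 and 4997 units (2.13 ± 0.37), and its partner Rrm1 gave 5515, 3367, 2211 and 3032 units (1.51 ± 0.37). Tk1, the salvage kinase for thymidine, gave 4807, 3823, 2743 and 2572 units (1.52 ± 0.24). Replicate 1 was highest in signal for these 3 probes, each the brighter of 2. The second probes were highest on replicate 2 instead, with 85.5, 470.0, 128 and 41.6 units for Rrm1, 319, 606, 232.5 and 160.1 units for Rrm2, and 838, 968, 659 and 406 units for Tk1. Tyms, which makes thymidylate, gave 518, 580, 250 and 239 units, and its SD of 0.12 was the lowest of the 38 members.

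Of the G1/S control genes, E2f1 and Ccne1 were detected on all 4 arrays. E2f1, an activating E2F, gave 1770, 1224, 705 and 735 units (-0.19 ± 0.22), and Ccne1, a cyclin E that drives entry into S phase, gave 951, 711, 440 and 654 units (-0.82 ± 0.36). Ccne2, the related cyclin, gave 75.7, 299, 17.9 and 36.8 units and was not well above background on replicate 3. The first 2 were highest on replicate 1 and Ccne2 on replicate 2.

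With the percentile scaling used here, replicates 1 and 4, which had the low spike-in signal, agreed most closely. The median absolute difference in level over the 38 members was 0.16 for that pair, against 0.20 for all 6904 genes. It was 0.56 for replicates 1 and 2, 0.28 for 1 and 3, 0.53 for 2 and 3, 0.70 for 2 and 4 and 0.31 for 3 and 4, where all genes gave 0.70, 0.43, 0.53, 0.76 and 0.52. Between replicates 1 and 4, 14 of 38 members were lower on replicate 4, beside 45.4% of genes, and the median difference was -0.10 against -0.03 (replicate 1 minus replicate 4). No member differed by over 1 log2 unit, which 0.724% of genes did downward and 0.811% upward. The widest differences were -0.73 for Rfc1, -0.69 for Orc2 and -0.68 for Pola1, while Pola2 stood at 0.68 in the opposite direction. The split by direction depended on scaling: on the 3 brightest spike-in probes, 34 of 38 members and 95.5% of genes were lower on replicate 4, and the median of all genes was 0.59. With that scaling the closest pair was replicates 1 and 2, at 0.35, while replicates 1 and 4 differed by 0.52. With another background correction (normexp), 13 of 38 members and 28.2% of genes were lower on replicate 4, with medians of -0.14 and -0.17. With undetected genes kept, the counts were 18 of 44 members and 32.9% of genes, with medians of -0.09 and -0.25. Under these settings the members' median lay above that of all genes, the reverse of the main setting.

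**Figure D3:**
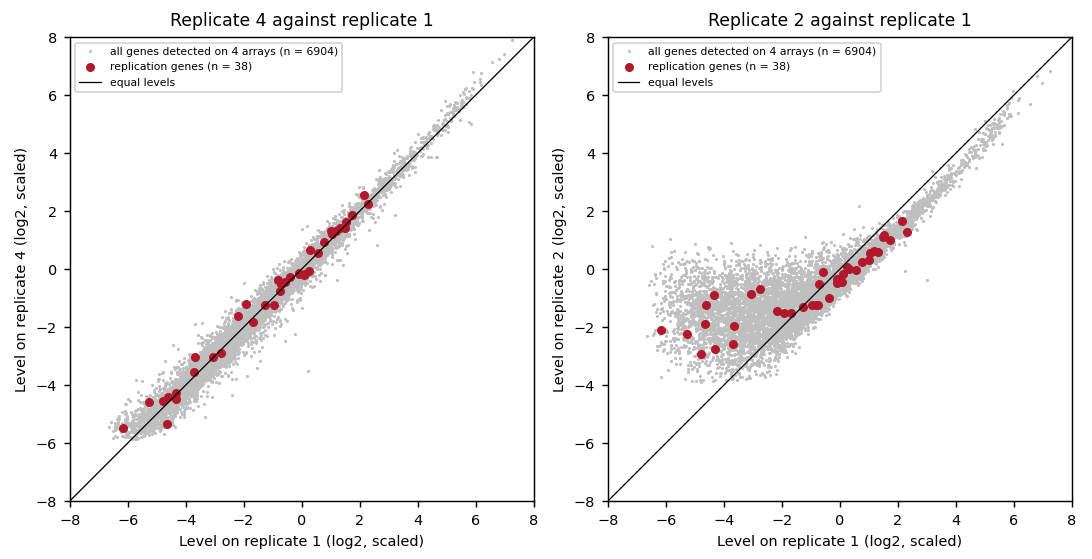
Scaled level (log2 units) of 38 replication genes (red) and 6904 genes (grey) on replicate 4 (left) and replicate 2 (right) against replicate 1; the line marks equal levels. Members lie along the line for replicate 4, and for replicate 2 the dim members stand above it and the bright ones slightly below under this scaling, an order that turns after quantile normalization.

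Between replicates 1 and 2 the difference followed brightness. When the 38 members were split at their median level, the 19 read by dimmer probes had a median difference of 1.57 (replicate 2 minus replicate 1), with 15 of 19 higher on replicate 2. The other 19 had a median of -0.48, with Gins4 as the 1 member higher on replicate 2. All genes below the same split gave a median of 1.1 and those above it -0.49. These directions depended on scaling. With spike-in scaling 19 of the 19 dimmer and 12 of the 19 brighter members were higher on replicate 2. With the all-probe percentile the counts were 3 and 0, and with quantile normalization 1 and 3. Such counts of direction were not made over all genes of like brightness, so none is read as a trait of the members. The dimmer members' median exceeded the brighter members' by 2.05 under the main, all-probe and spike-in scalings, which shift whole arrays, and stood at -2.16 against it after quantile normalization. A difference of over 1 log2 unit in favour of replicate 2 was seen in 11 of 38 members, beside 35.0% of genes. The median SD was 0.70 in the dimmer members and 0.31 in the brighter, against 0.63 and 0.33 for genes below and above the split. The dimmest spike-in and the epithelial markers were also high on replicate 2; their part in the levels of Orc, Cdc6, Cdt1, Gmnn and Pola genes was not tested.

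**Figure D4:**
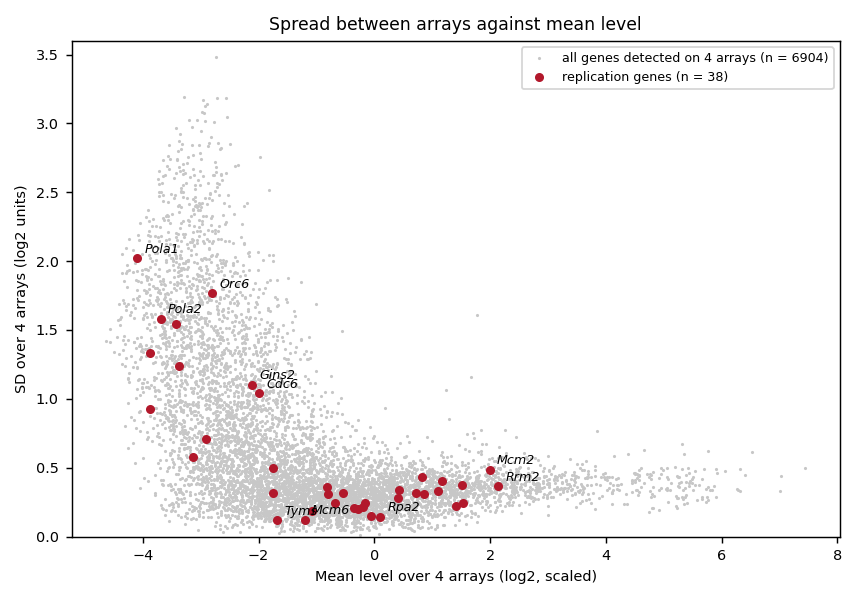
SD of the level over the 4 arrays against mean level (both in log2 units) for 38 replication genes (red, 10 of them named) and 6904 genes (grey). Pola1, Orc6 and Pola2, with SDs of 2.02, 1.77 and 1.58, lie in the dim range, and Tyms, Mcm6 and Rpa2 lie near the bottom. The median SD of genes was higher in the dim range, though not every dim gene spread widely.

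An array prints 10 spots of the same probe for 7 members and so gives the error of a spot beside the difference between arrays. The genes are Mcm2, Mcm3, Mcm7, Fen1, Lig1, Rrm1 and Rrm2. The SD of log2 signal between spots of a probe on 1 array had a median of 0.11 and ranged from 0.04 (Mcm2, replicate 1) to 0.35 (Lig1, replicate 4). The SD of the level between arrays had a median of 0.37 over the same 7 probes and ranged from 0.22 (Lig1) to 0.49 (Mcm2). On these scaled levels replicate 2 was the lowest array for all 7 probes, so their SDs hold a shared offset of that array and depend on the scaling. In unscaled signal the Mcm2 spots of replicate 1 read 7963 to 8718 units and those of replicate 2 read 3847 to 4337; the mean of replicate 1 was the highest for all 7 probes, so this gap is not particular to Mcm2. Unscaled spots of replicates 3 and 4 overlapped for all 7 probes except Rrm2, whose highest replicate 3 spot read 4159 units and whose lowest replicate 4 spot read 4552.

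**Figure D5:**
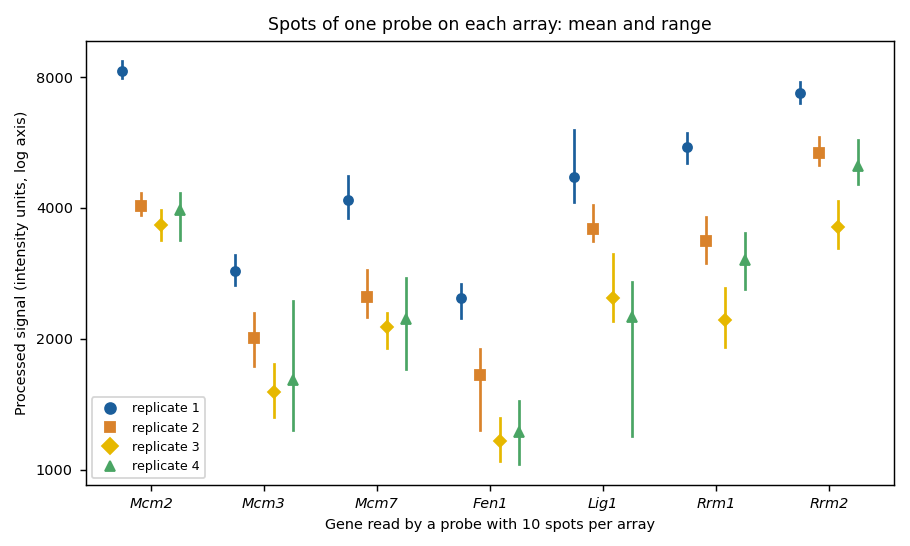
Mean (symbol) and range (line) of the processed signal (intensity units, log axis) over the spots of 7 probes printed 10 times per array, for each array; 8 to 10 spots were used after outlier spots were left out. Replicate 1 lies above the other arrays for each gene, with no scaling applied.

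Whether any gene varied more between the 4 arrays than genes of like brightness was tested with limma, by an F test of each gene's variance against a prior variance that follows mean level. No member of 38 passed at an adjusted p of 0.05 (Benjamini-Hochberg over 6904 genes), beside a background of 0% (0 of 6904 genes). At an unadjusted p under 0.05 there were 311 genes and 0 members, and with limma's robust prior 0 genes passed with 270 at the unadjusted threshold. The member with the lowest p was Orc6, with an SD of 1.77 against a prior SD of 0.81 and a limma adjusted p of 0.94. With 4 arrays the test has little power, and a miss does not show that spreads were equal.

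Other genes of replication and its E2F control, 71 on a fixed list, were measured for 57. Of those, 43 were well above background on all 4 arrays, beside 42.4% of all named genes. On replicates 1 and 4 the count was 46, beside 45.9% of genes. The 14 not detected on all 4 arrays included the replication genes Pole4, Mcm9, Cdc7 (the kinase that fires origins with Dbf4), Wdhd1 and Top1. They also included Dck, Dctd and Rrm2b of nucleotide supply, and the regulators Skp2, Fbxo5, Rbl1, E2f7, Tfdp2 and Dnmt1, the maintenance DNA methyltransferase. Cdc7, Wdhd1 and Tfdp2 were detected on replicates 1 and 4 but missed on replicate 2, replicate 3 or both. Dbf4 gave 415, 1197, 294 and 251 units, and Ccna2, the S phase cyclin, gave 1518, 1265, 541 and 995 units. For the 42 of these genes with a chosen probe detected on all arrays, the median level was -1.22 and the median SD 0.36. The medians over all genes are those given above for the members. Of the 42, 15 were lower on replicate 4 than on replicate 1, beside 45.4% of genes, a direction that depended on scaling.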

How the data were processed

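RNA of NR8383 cells was labelled with Cy3 and hybridised to 4 one-colour Agilent arrays. The deposited intensities are processed signals that, per the file headers, Agilent Feature Extraction 11.0.1.1 wrote after background subtraction and a spatial correction; the series' value table equals the median pixel intensity and was not otherwise used. Control spots were dropped, as were those with a non-uniformity or population outlier flag, spots of a probe were averaged, and a probe was called detected if over 0.5 of its spots were well above background. Probes were named by accession through RefSeq (GRCr8); the array's own build differs and no gene coordinates were taken from it. Each array's 75th percentile of log2 signal over 12899 probes detected on all arrays was subtracted, since most spots on replicates 1 and 4 were not detected; the highest-mean probe stood for a gene. limma 3.58.1 (R 4.3.3) gave the test of spread. It was tried on simulated data whose added spreads were far larger than those of the members, which does not show its power at the spreads seen. The replicates are called biological. Their number, the raised dim signal of replicates 2 and 3 and the choice of scaling limit precision. Members, gene lists and motifs were chosen with earlier results of these data known. Genes dwelt on are all members by role, and the 3 of highest and 3 of lowest SD among members detected on all arrays. Also dwelt on are the 3 of largest difference between replicates 1 and 4, members whose probes disagreed, and undetected genes of the further list. Dbf4, Ccna2, Pola2's difference and the second probes of Mcm2, Mcm3, Mcm4, Lig1, Rrm1, Rrm2 and Tk1 were picked after their values were seen. Alternatives covered scaling, background correction, probe choice, spot and dim filters, detection flags, the prior, the motif window and each array left out. Spike-in scaling, 10-spot probes alone, the direction count between replicates 1 and 4, and detection on those arrays alone were chosen after seeing the data.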

Additional observations from a re-analysis of the deposited data

Results flagged for a closer look

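For 3 members the lowest array stood far from the other 3, measured as its gap to the nearest array over the whole range of the 4 levels and set against Dixon's 95% critical value for 4 arrays. The ratio was 0.8751 for Mcm2, 0.8913 for Mcm7 and 0.9063 for Fen1, and in each case the array that stood apart was replicate 2. Chance gives about 1 in 20 for a gene. Counting a gap at either end, lowest or highest, 3 of 38 members (7.89%) and 387 of 6904 genes (5.61%) passed. Because the 3 members share the same low array, they are not independent events. All 3 are among the 19 brighter members, of which only Gins4 was higher on replicate 2 than on replicate 1 under the main scaling. The share over all genes was not split by brightness. With spike-in scaling or the all-probe percentile none of the 3 passed (0.3236 to 0.4559 for the former, 0.3745 to 0.4238 for the latter), and after quantile normalization only Fen1 did, at 0.9386. With outlier spots kept Mcm2 (0.8933) and Mcm7 (0.8869) passed, and Fen1 stood at 0.8252 and did not. With normexp all 3 passed, at 0.8404 for Mcm2, 0.9535 for Mcm7 and 0.9169 for Fen1.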

How the results depend on the processing

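No alternative changed the count of 0 members with extra spread by limma, whose unadjusted count of members was also 0 in each. No gene of any kind passed in any of them, so this sameness says little about the members. Leaving out 1 array at a time gave 39 to 41 members and 43 to 45 further genes detected on all remaining arrays, 19 to 28 members above the spike-in threshold, a median level of -0.69 to -0.56 and a median SD of 0.24 to 0.40. With the spike-in mean alone as threshold, 31 members passed in place of 19. The all-probe percentile gave a median level of 2.21, a median SD of 1.73 and median absolute differences of 3.52 (replicates 1 and 2), 2.24 (1 and 3), 1.17 (2 and 3), 3.36 (2 and 4) and 2.23 (3 and 4). Spike-in scaling gave a median level of -3.65 and differences of 0.87 (1 and 3), 0.52 (1 and 4), 1.23 (2 and 3) and 1.05 (2 and 4), with 34 members lower on replicate 4. Quantile normalization gave 0.97 for replicates 1 and 2. Of the 7 probes with 10 spots, 3 were lower on replicate 4. The promoter window of 300 bases gave 18 members with an E2F-type form in place of 10. Single levels moved beyond their spread for 6 of 38 members after quantile normalization, 7 with normexp, 7 with the mean of probes and 1 with outlier spots kept. The all-probe percentile and spike-in scaling moved all 38 alike, by 2.83 and -3.04, by construction. Taking the mean of probes can only lower a level or leave it, since the main choice is the highest-mean probe. The cause of the shifts with quantile normalization, normexp and outlier spots kept was not tested. The raised dim signal on replicates 2 and 3 limits what can be read for dim members there.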
